A study of Caenorhabditis elegans with 4 samples.

Results

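The nuclear genes for the protein subunits of the mitochondrial ribosome were examined in Caenorhabditis elegans, a nematode, that carried a defect of the respiratory chain with or without a second mutation in a homeobox gene. The genes were chosen by symbol alone, as those named mrpl (large subunit) or mrps (small subunit) with a number. The gene table holds 71 such genes, 42 for the large and 29 for the small subunit. Probes on the array were named for 70 of them, and 68 of the 13685 genes tested were members, 39 for the large and 29 for the small subunit. The gene dap-3, whose human homolog is a small subunit protein, has a symbol of another form and was not counted.

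The animals were of 2 genotypes. One was isp-1(qm150);ceh-23(ms23), which carried qm150 together with ms23, a mutation of ceh-23, a gene for a homeodomain protein. The other was isp-1(qm150), in which the gene for the Rieske subunit of respiratory complex III is mutated. Both therefore carried the isp-1 mutation, and neither genotype was wild type. Whole synchronized larvae of the mid-L4 stage were used, raised at 20 C with OP50 bacteria as food. Each of 4 arrays compared the double mutant with isp-1 in 2 colours, over 3 biological replicates, of which replicate 1 was put on 2 arrays with the dyes exchanged. The arrays of replicate 1 were averaged, so n = 3 for every ratio. Log2 ratios are of isp-1;ceh-23 over isp-1, so those above 0 stand for more transcript in the double mutant.

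Mitochondria keep their own ribosomes, which translate the few messenger RNAs of the mitochondrial genome, all of them for subunits of the respiratory chain and of ATP synthase. The ribosomal RNAs come from mitochondrial DNA, whereas the ribosomal proteins are encoded in the nucleus, made in the cytosol and imported. Some of these proteins have counterparts in bacterial ribosomes and others are found only in mitochondria. The small subunit binds the messenger and reads codons, and the large subunit joins amino acids and passes the growing chain to the inner membrane. In C. elegans, knockdown of mrps-5 is known to lengthen life and to induce the mitochondrial unfolded protein response.

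Over the 43803 spots of an array, median Cy5 signals of 109.5 to 216 stood above local backgrounds of 59.5 to 61. For Cy3 the signals were 164 to 258.5 and the backgrounds 38 to 63. All 68 members had a probe well above background in both genotypes on all 4 arrays, as had 95.6% of all genes tested, and no spot was saturated. Normalized member signals ran from 115 to 16019 in the double mutant and from 121 to 16542 in isp-1. The arrays of replicate 1 shared one slide, and those of replicates 2 and 3 shared another. The single ceh-23 probe, which was too dim to be tested, gave log2 ratios of 0.02, -0.05, -0.20 and -0.06 on the dye-flip and first arrays of replicate 1 and the arrays of replicates 2 and 3. Where it lies relative to the ms23 lesion is not given in the sources used here, so it checks neither genotype. The labels call the replicates biological and say no more of how they were separated.

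Ratios of mitochondrial ribosomal protein transcripts lay close to 0, and none of the 68 passed the test. No member reached a 1.5-fold difference, against 9.59% of all genes tested. The mean log2 ratios of the 68 members ran from -0.25 for mrpl-51 to 0.29 for mrpl-41, with a median of 0.09, where the median of all genes was -0.01. In limma 0 of 68 members passed an adjusted p of 0.05, against 3.37% of all genes, of which 0.775% were higher and 2.59% lower. At an unadjusted p of 0.05, 2 members passed, mrpl-41 and mrps-33, with ratios above 0 in both, against 35.9% of all genes.

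The 95% interval of the ratio, computed from limma's moderated standard error, reached 0.26 on the log2 scale to either side at the median member, and from 0.23 to 0.46 over the members. For all 68 members the interval lay wholly within 1.5-fold of no difference, which held for 65% of all genes tested. This count was added after the data were seen. It rests on the moderation, which narrowed the intervals of members with widely spread replicates, such as mrpl-30 (SD 0.50) and mrps-21 (SD 0.48). The lowest bound was that of mrpl-51 (0.696-fold) and the highest that of mrpl-41 (1.45-fold). The moderated standard errors were alike in members and in all genes, with medians of 0.106 and 0.112. Moderation draws each gene's variance toward a value shared by all genes, which holds 4.09 of the 6.09 degrees of freedom. The median SDs over the replicates, which are not moderated, were 0.15 and 0.18. The members' means were closer together, with an SD across genes of 0.11 for the members and 0.37 for all genes. With median centring in place of loess 22 of 68 intervals lay within 1.5-fold, a share close to the 30.6% of all genes, and all 68 lay within 2-fold. Without replicate 1 the count within 1.5-fold was 47 of 68, against 42% of all genes.

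**Figure D1:**
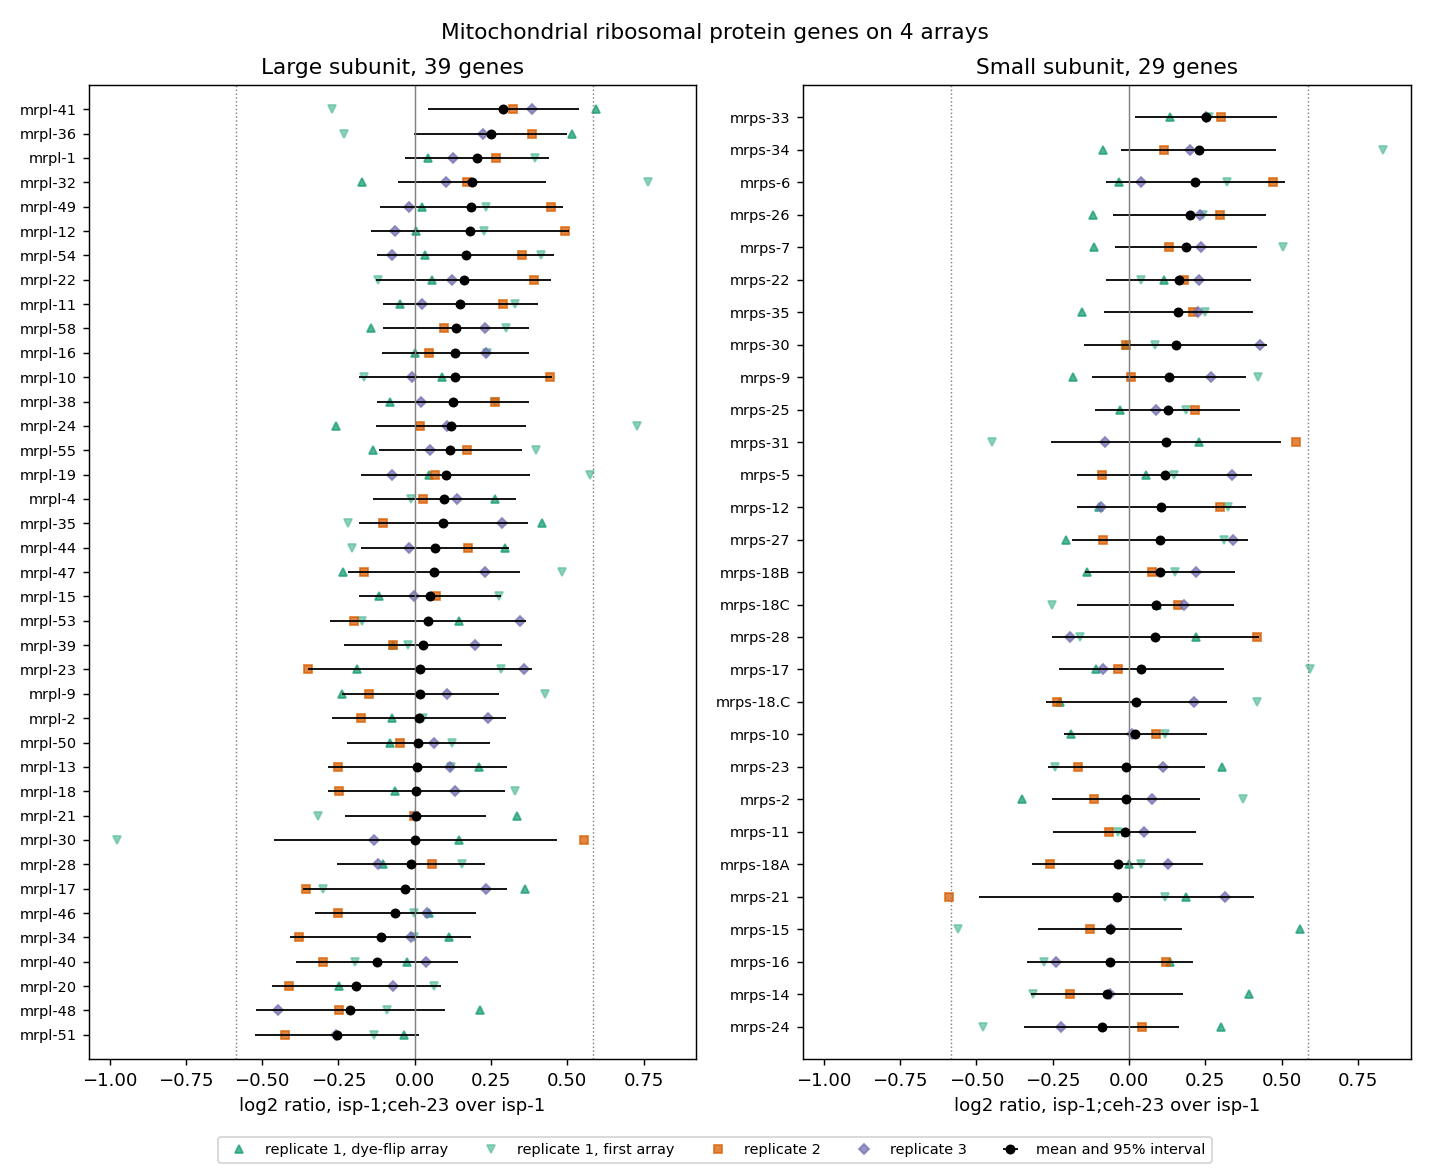
Log2 ratios of isp-1;ceh-23 over isp-1 for the 39 large subunit genes (left) and the 29 small subunit genes (right). Coloured symbols are single arrays, black circles the mean of 3 replicates with its 95% interval from limma, and dotted lines mark 1.5-fold. No black interval reaches a dotted line, while single arrays lie as far out as -0.98 for mrpl-30.

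**Figure D2:**
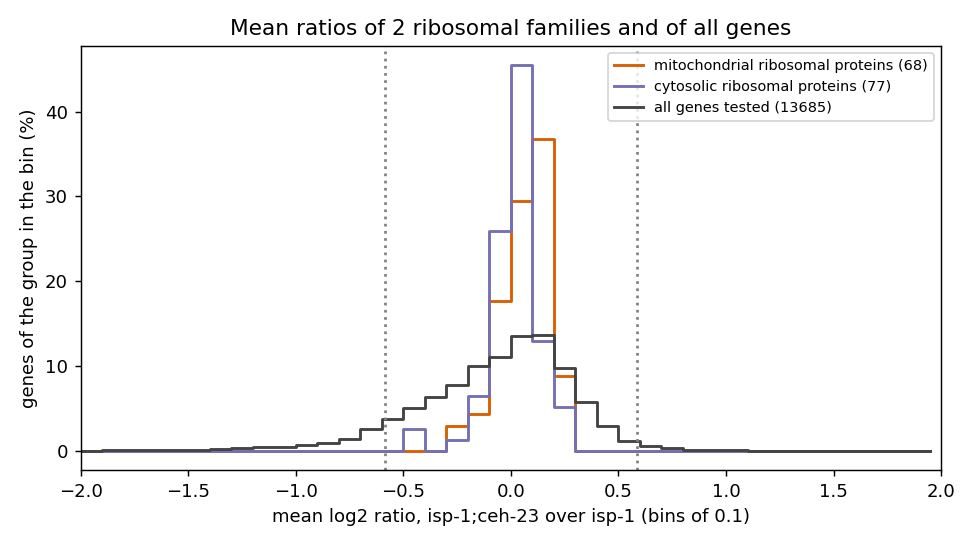
Share of genes (percent) in bins of 0.1 of the mean log2 ratio, for 68 mitochondrial ribosomal protein genes, 77 cytosolic ribosomal protein genes and 13685 genes tested. Dotted lines mark 1.5-fold. The horizontal axis runs to 2 on either side of 0 and leaves out the few genes further below, while the highest gene stood at 1.56. The members lie between -0.25 and 0.29, a range that holds 61.7% of all genes.

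The large subunit had a median log2 ratio of 0.06, with the middle 50% of its 39 genes between 0.00 and 0.13. Of these, 31 were above 0 and 8 below. The highest was mrpl-41 (B0432.3, chromosome II), which encodes a mitochondrion-specific protein whose human homolog binds the apoptosis regulator Bcl-2. Its normalized signals in the double mutant were 4081, 3476, 2539 and 1350, against 2707, 4193, 2029 and 1034 in isp-1, on the dye-flip and first arrays of replicate 1 and in replicates 2 and 3. The signals were higher in the double mutant on 3 of the 4 arrays and lower on the first array of replicate 1. The resulting log2 ratios were 0.59, -0.27, 0.32 and 0.38, with a mean of 0.29 (SD 0.12, n = 3, limma adjusted p = 0.106).

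At the other end of the large subunit stood mrpl-51 (T12G3.5, chromosome IV), for another mitochondrion-specific protein. Its signals were 2839, 3493, 1882 and 1189 in the double mutant, against 2908, 3831, 2525 and 1420 in isp-1, in the same order of arrays. It was lower in the double mutant on all 4 arrays, by log2 ratios of -0.03, -0.13, -0.42 and -0.26. The mean was -0.25 (SD 0.17, n = 3, limma adjusted p = 0.153). It was the only member lower on all 4 arrays, a pattern that 25.3% of all genes showed.

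Between these ends, mrpl-36, for a small protein with a bacterial counterpart, had 0.25 (SD 0.12, limma adjusted p = 0.14). Its dye-flip and first arrays of replicate 1 stood at 0.51 and -0.23. The gene mrpl-1 (F33D4.5), whose bacterial counterpart forms the stalk through which spent tRNA leaves, had ratios of 0.04 and 0.39 in replicate 1, 0.27 in replicate 2 and 0.13 in replicate 3. It was one of 2 large subunit genes above 0 on all 4 arrays, the other being mrpl-16 at 0.00, 0.24, 0.05 and 0.24. The mean of mrpl-1 was 0.20 (SD 0.07, limma adjusted p = 0.183). Of its 3 probes, 1 lay slightly below 0 on the dye-flip array (-0.03) and in replicate 3 (-0.02).

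Also among the 6 highest were mrpl-32, for a protein that the m-AAA protease is known to process in yeast and mouse, at 0.19 (SD 0.10), mrpl-49 at 0.19 (SD 0.24) and mrpl-12 at 0.18 (SD 0.28). The bacterial counterpart of MRPL-12 recruits translation factors to the ribosome. For mrpl-32 the dye-flip and first arrays of replicate 1 stood at -0.17 and 0.76. In mrpl-12 and mrpl-49 the mean was smaller than the SD over the replicates, and leaving out 1 replicate gave 0.025 to 0.304 for mrpl-12 and 0.055 to 0.288 for mrpl-49, both lowest without replicate 2. The other low genes were mrpl-48 at -0.21 (SD 0.26), mrpl-20 at -0.19 (SD 0.19), mrpl-40 at -0.12 (SD 0.17), mrpl-34 at -0.11 (SD 0.23) and mrpl-46 at -0.06 (SD 0.16). Of these, mrpl-20 and mrpl-34 have bacterial counterparts, and the SD exceeded the size of the mean in all but mrpl-20. The adjusted p in limma lay between 0.219 and 0.692 for these 8 genes.

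The remaining 27 large subunit genes lay between -0.03 for mrpl-17 and 0.17 for mrpl-54. The gene mrpl-30 had the widest spread of all members, with ratios of 0.14 and -0.98 in replicate 1, 0.55 in replicate 2 and -0.13 in replicate 3. Its arrays disagreed in direction, and the mean was 0.00 (SD 0.50). The gene mrpl-21 had nearly the same mean, 0.00, with an SD of 0.01, although its arrays of replicate 1 stood at 0.33 and -0.32. Neither mrpl-37 nor mrpl-45 was tested. The mrpl-37 spot of replicate 2 was an outlier, and its other arrays gave 0.45, -0.31 and 0.27, while the mrpl-45 probe, well above background in each genotype on only 3 arrays, gave 0.15, -0.15, 0.32 and -0.21. For mrpl-42 no probe was named.

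The small subunit had a median log2 ratio of 0.10, with the middle 50% of its 29 genes between -0.01 and 0.15. Of these, 20 were above 0 and 9 below. The highest was mrps-33 (F21D5.8, chromosome IV), which encodes a mitochondrion-specific protein. Its signals were 5269, 6670, 4249 and 2150 in the double mutant, against 4795, 5556, 3447 and 1805 in isp-1, on the dye-flip and first arrays of replicate 1 and in replicates 2 and 3. It was higher in the double mutant on all 4 arrays, with ratios of 0.14, 0.26, 0.30 and 0.25. The mean was 0.25 (SD 0.05, n = 3), a 1.19-fold difference with a 95% interval from 1.01-fold to 1.40-fold. Its unadjusted p was 0.0387, and it did not pass in limma (adjusted p = 0.123). In all, 4 members were above 0 on all 4 arrays, where 20.9% of all genes were.

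The gene mrps-5 (E02A10.1, chromosome V), with a bacterial counterpart and the one whose knockdown is known to lengthen life in this species, lay in the middle of the family. Its signals were 4790, 4993, 2831 and 1869 in the double mutant, against 4609, 4513, 3008 and 1480 in isp-1. The ratios were 0.06 and 0.15 in replicate 1, -0.09 in replicate 2 and 0.34 in replicate 3, so the replicates did not share a direction. The mean was 0.12 (SD 0.21, limma adjusted p = 0.494), with a 95% interval from 0.889-fold to 1.32-fold.

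The next highest small subunit genes were mrps-34 at 0.23 (SD 0.13), mrps-6 at 0.22 (SD 0.23), mrps-26 at 0.20 (SD 0.12), mrps-7 at 0.19 (SD 0.05) and mrps-22 at 0.16 (SD 0.08). MRPS-6 and MRPS-7 have bacterial counterparts, that of MRPS-7 being a protein that starts the assembly of the small subunit head. MRPS-34, MRPS-26 and MRPS-22 are mitochondrion-specific. The mrps-22 gene was above 0 on all 4 arrays, at 0.11, 0.04, 0.18 and 0.23. On the first array of replicate 1, however, its 2 probes gave -0.24 and 0.32. The mrps-34 gene had 0.83 on the first array of replicate 1 and -0.09 on the dye-flip array of the same replicate. For mrps-7 these arrays gave 0.51 and -0.12.

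The 6 lowest small subunit genes all have bacterial counterparts. They were mrps-24 at -0.09 (SD 0.13), mrps-14 at -0.07 (SD 0.12), mrps-16 at -0.06 (SD 0.18), mrps-15 at -0.06 (SD 0.06), mrps-21 at -0.04 (SD 0.48) and mrps-18A at -0.04 (SD 0.20). The SD over the replicates was larger than the size of the mean in each of them. For mrps-15 the dye-flip and first arrays of replicate 1 stood at 0.56 and -0.56. The gene mrps-21 was at -0.59 in replicate 2 and at 0.32 in replicate 3, which shared a slide and had opposite dyes. The other small subunit genes lay between -0.01 for mrps-11 and 0.16 for mrps-35. The gene dap-3 had 0.16 (SD 0.04, limma adjusted p = 0.26), within the range of the members.

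Their medians were 0.06 and 0.10, a difference of -0.04 (large minus small), and in replicates 1, 2 and 3 that difference was 0.03, -0.05 and -0.06 (SD 0.05, n = 3). Its direction was thus not shared by the replicates, and the difference was smaller than their SD. In replicates 1, 2 and 3 the median was 0.08, 0.03 and 0.06 for the large subunit and 0.05, 0.08 and 0.13 for the small subunit. For all genes tested it was -0.02, -0.05 and 0.02, so both subunits stood slightly above all genes in each replicate.

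A split by descent was drawn from textbook knowledge of human and bacterial ribosomes. The 44 members with a bacterial counterpart had a median of 0.04 and the 24 mitochondrion-specific members one of 0.12. In the small subunit the 10 mitochondrion-specific genes had a median of 0.16, with 9 of them above 0. The 19 with bacterial counterparts had 0.02, with 11 above 0. The 10 include mrps-30 (0.15) and the 19 include mrps-18A (-0.04), whose human homologs lie in the large subunit. This split was not recomputed with them moved. In the large subunit the medians were nearly equal, at 0.055 for the 14 mitochondrion-specific genes and 0.063 for the 25 others. The higher median of the mitochondrion-specific small subunit genes was 0.06, 0.20 and 0.23 in replicates 1, 2 and 3, against 0.03, 0.01 and 0.05 for the other small subunit genes. These are descriptions, and none of the 10 genes passed in limma, against 3.37% of all genes. At an unadjusted p of 0.05, 1 of the 10 passed, against 35.9% of all genes.

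Most members had a ratio slightly above 0. Of the 68, 51 did (75%), against 48.3% of all genes, and 21 were above 0 in all 3 replicates (30.9%, against 29% of all genes). Only 3 members were below 0 in all 3 replicates (4.41%, against 30.6% of all genes). The subunit medians lay above that of all genes by 0.08 for the large and 0.11 for the small subunit, beside median standard errors of single genes of 0.11 and 0.10. The number of members above 0 moved with the normalization, to 38 of 68 with median centring and to 58 of 68 with the scanner's own log ratios. The level of all genes moved as well, by -0.04 and by 0.05 in those settings.

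The arrays of replicate 1, which measured the same genotypes with exchanged dyes, gave opposite signs for 53 of the 68 members (77.9%), against 33.1% of all genes. Across the 68 members the ratios on these arrays had a Pearson correlation of -0.71, where across all 13685 genes it was 0.67. Genes are not independent replicates and share the arrays, so these are descriptions. The median size of the difference between the arrays was alike in members and in all genes, at 0.38 and 0.31. Averaging the arrays reduced the SD across members to 0.12, against 0.21 on the dye-flip array and 0.33 on the first array.

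Between the biological replicates the order of the members was not shared. Across the 68 members the correlation was 0.05 between replicates 1 and 2, 0.26 between 1 and 3 and -0.14 between 2 and 3. Across all genes the values were 0.85, 0.63 and 0.55. The SD across the members' means, 0.11, was about as large as the median standard error of a single member, 0.106. The mean over the 3 replicates balances the dyes, since replicates 2 and 3 had opposite orientations, and with dye as a covariate 0 members passed in limma, against 30.3% of all genes. In that fit 6 members had an unadjusted p under 0.05, against 46.3% of all genes.

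**Figure D3:**
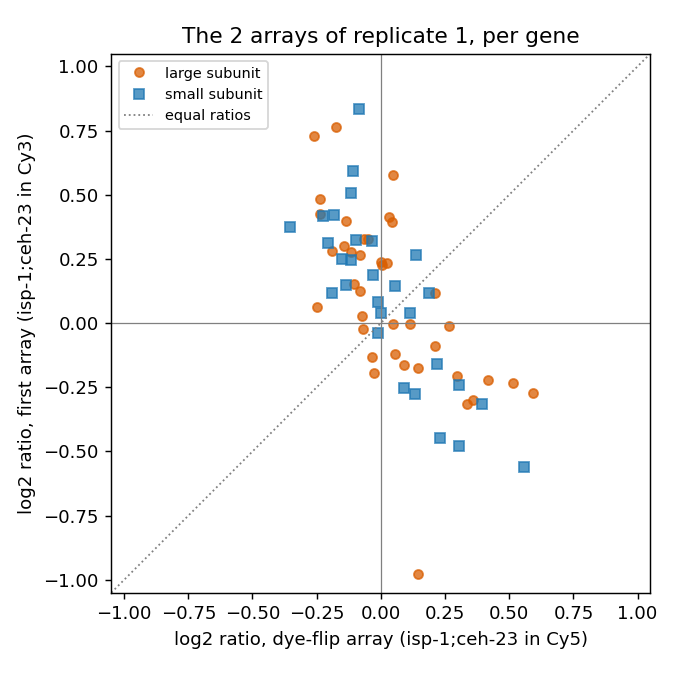
Log2 ratios of isp-1;ceh-23 over isp-1 for the 68 members on the dye-flip array (horizontal) and on the first array (vertical) of replicate 1, with the large subunit as circles and the small subunit as squares. The dotted line marks equal ratios, and 53 of the 68 genes have opposite signs on the 2 arrays.

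Of the members, 58 rested on 1 probe and 10 on several. None of these 10 had probes with mean ratios past 0.3 in both directions. The 6 probes of mrps-28 gave means from 0.03 to 0.18 and the 6 of mrps-18C from 0.04 to 0.15, while the 3 of mrpl-1 lay between 0.18 and 0.22 and the 3 of mrpl-12 between 0.12 and 0.16. The mean ratios of the probes differed in sign in 4 of the 10 genes. Those of mrpl-28 ran from -0.14 to 0.08, those of mrps-11 from -0.09 to 0.09 and those of mrps-18A from -0.10 to 0.00. The 3 probes of mrpl-44, a protein with a fold of the ribonuclease III family, differed most, from -0.23 to 0.35, and the gene's mean was 0.07 (SD 0.10). An outlier spot removed 1 of the 3 probes of mrpl-12 and 1 of the 3 of mrps-11 in replicate 2. The mrpl-12 mean of 0.18, which averages the remaining probes in that replicate, therefore lies outside the range of its probe means.

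The members lie on chromosomes I to V of the gene table. Their medians were 0.06 for 15 genes on I, 0.02 for 11 on II, 0.11 for 22 on III, 0.07 for 10 on IV and 0.09 for 10 on V, and none of them passed in limma on any chromosome. The only members that neighbour each other among protein-coding genes are mrps-2 and mrpl-4 on chromosome V, a gene of each subunit. Their ratios were -0.01 (SE 0.10) and 0.10 (SE 0.10), which did not differ beyond their errors.

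Genes that work with the mitochondrial ribosome were viewed beside it, and their counts are to be read against the 3.37% of all genes that passed and the 35.9% with an unadjusted p under 0.05. Of 6 genes for mitochondrial translation factors, 0 passed in limma over all genes and 2 had an unadjusted p under 0.05, and the median was 0.13. Those with the highest ratios were gfm-1, for an elongation factor that moves the ribosome along the messenger, at 0.33 (SD 0.20, limma adjusted p = 0.103), and tufm-1, for the factor that delivers charged tRNA, at 0.32 (SD 0.21, limma adjusted p = 0.11). The recycling factor gene mtrr-1 had 0.05 (SD 0.06). The replicate values of gfm-1 were -0.01 and 0.33 in replicate 1, 0.29 in replicate 2 and 0.54 in replicate 3, and those of tufm-1 were 0.16, 0.39, 0.55 and 0.15.

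Of 13 genes for aminoacyl-tRNA synthetases listed as mitochondrial, which charge tRNAs, 0 passed and 1 had an unadjusted p under 0.05 in limma, with a median of -0.00. This was rars-2, for an arginyl-tRNA synthetase, at -0.38 (SD 0.28, limma adjusted p = 0.105). Of 14 genes listed for the mitochondrial unfolded protein response, 0 passed in limma. An unadjusted p under 0.05 was found for 6, against 35.9% of all genes. The median of the 14 genes, 0.22, was above that of either subunit of the ribosome. It was 0.21, 0.23 and 0.22 in replicates 1, 2 and 3. Of the 14, 12 were above 0, as with the chaperone gene hsp-60 at 0.37 (SD 0.18, limma adjusted p = 0.0813), while hmg-5 had -0.45 (SD 0.40, limma adjusted p = 0.111).

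The cytosolic ribosome translates the messengers of nuclear genes, those for the mitochondrial ribosome included. Of its 77 protein genes 0 passed in limma and 4 had an unadjusted p under 0.05, against 35.9% of all genes, with a median of 0.02. Its 47 large subunit genes had a median of 0.02 and its 30 small subunit genes one of 0.04. The ratios ran from -0.44 for rpl-11.1 (SD 0.40, limma adjusted p = 0.113) to 0.28 for rpl-23A.1 (SD 0.08, limma adjusted p = 0.104). For 73 of the 77 the interval lay within 1.5-fold of no difference. The difference between the families was not tested.

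**Figure D4:**
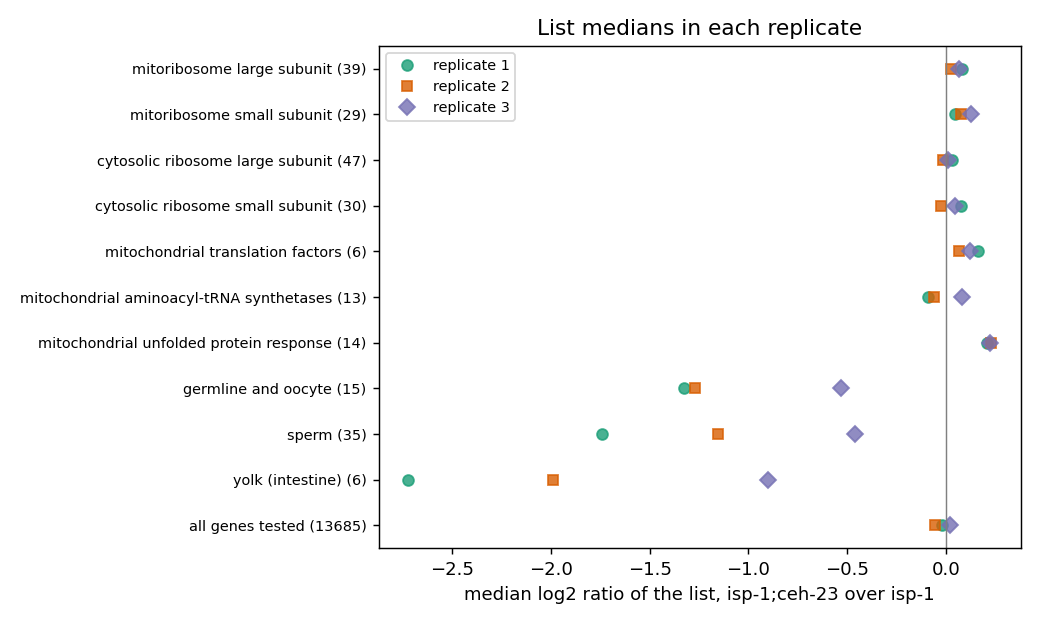
Median log2 ratio of isp-1;ceh-23 over isp-1 in each replicate for gene lists, with the number of genes tested in parentheses. The mitochondrial and cytosolic ribosomal lists stay within 0.13 of 0 in every replicate, while the germline, sperm and yolk lists lie between -2.72 and -0.46.

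Reproductive transcripts differed between the samples. Of 15 germline and oocyte markers 8 fell in limma at an adjusted p of 0.05, with a median of -0.98. The 8 that fell shared a limma adjusted p of 0.0495, and the germline markers that did not pass had 0.0502 to 0.0858. These calls stood at the threshold, and with median centring 0 of all genes passed in limma. Of 35 sperm genes 11 fell, with a median of -1.16. Of 6 yolk protein genes 5 fell, with a median of -1.87, where 2.59% of all genes fell. The sperm and yolk genes that fell had limma adjusted p values of 0.0495 to 0.0496. All 15, 35 and 6 genes of these lists were below 0 with an unadjusted limma p under 0.05, against 22.3% of all genes. Markers of body wall muscle, pharynx, neurons and hypodermis had medians of 0.27, 0.57, 0.37 and 0.54. Of these 23 genes 1, nhr-25, rose, against 0.775% of all genes. Intestinal markers other than yolk genes had a median of 0.17, and 0 of 6 passed, against 3.37% of all genes. The part of these differences in the ratios of the ribosomal genes was not tested. In whole animals, fewer cells of a type and less RNA per cell cannot be told apart, and genotype and developmental stage cannot be told apart.

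The replicate medians of the 68 members were 0.06, 0.04 and 0.10, beside -1.32, -1.27 and -0.53 for the germline list and -1.74, -1.15 and -0.46 for the sperm list. Within the second slide alone, which is replicates 2 and 3, the median was 0.06 for the large and 0.12 for the small subunit, and 0 members passed in limma, against 0.753% of all genes. None had an unadjusted p under 0.05 there, against 14.9% of all genes. The other slide holds a single replicate and allows no test.

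**Figure D5:**
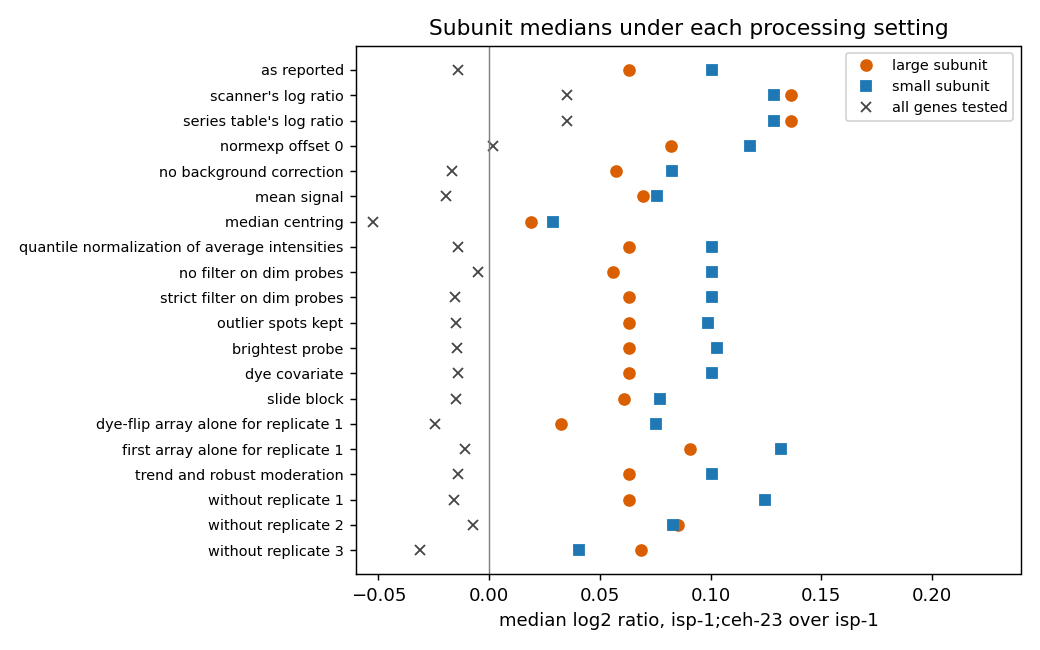
Median log2 ratio of isp-1;ceh-23 over isp-1 for the large subunit, the small subunit and all genes tested under each processing setting. Both subunits lie above all genes in every setting, while their order relative to each other changes with the scanner's and the series table's log ratios, without replicate 2 and without replicate 3.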

How the data were processed

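Per the labels, total RNA of whole larvae was amplified from 100 ng and labelled with Cy3 or Cy5. Per the file headers, the authors quantified the arrays with Agilent Feature Extraction 10.5.1.1 (protocol GE2_105_Dec08, design build ce4). The deposited intensity values are median pixel intensities of spot and local background, neither subtracted nor normalized, together with background-subtracted and dye-normalized intensities. The deposited log10 ratios are of processed Cy5 over Cy3, and the series table differed from them by less than 0.005. The remaining deposited columns are other values, flags of 0 or 1 for spots.

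Median signals were corrected by normexp (offset 50, included in the signals printed) and each array by loess, where control spots had weight 0, in limma 3.58.1 under R 4.3.3. Spots marked as outliers were dropped, log2 ratios of the deposited channels were turned by the labelled dyes, and those of replicate 1 were averaged. The mean signal of one alternative was taken as background-subtracted signal plus median background. A probe counted as measured when well above background in 1 genotype in all 3 replicates (either array of replicate 1), as did 26248 of 43603. Probes were named by sequence name or accession through the RefSeq table of WBcel235 (35017 and 356 of 43803 spots, 8430 unnamed). As builds differ, no coordinates are given. Genes are means over kept probes. lmFit and eBayes tested the mean of the replicates, two-sided and Benjamini-Hochberg adjusted over 13685 genes, on 6.09 degrees of freedom, after a check on simulated data.

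Members and lists were chosen with earlier results of these data known. Named genes were any member past the threshold, the 6 highest and 6 lowest per subunit, mrps-5, and members with disagreeing probes; others were named after their values were seen. No sequence of a member was used here. The number of replicates limits the precision.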

Additional observations from a re-analysis of the deposited data

How the results depend on the processing

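With 3 replicates and small ratios, values near 0 have no firm sign. Under the 19 alternatives 0 members passed in limma, against 0% to 43.3% of all genes, and between 0 and 8 had an unadjusted p under 0.05. With median centring 0 of all genes passed, and with the mean signal or no background correction 2 did. Without a dim filter, with outlier spots kept or without replicate 2, 1 gene passed, so 0 members says little in these settings. Quantile normalization of average intensities leaves the ratios unchanged and returned the reported result. The count of intervals within 1.5-fold was added after seeing the data. It was 22 with median centring, 47 to 68 when 1 replicate was left out (47 without replicate 1) and 62 to 69 elsewhere. The large subunit median was 0.136 from the scanner's log ratios and 0.136 from the series table, 0.019 with median centring, and 0.032 and 0.091 with the dye-flip or the first array alone for replicate 1. The small subunit median was 0.029 with median centring. Leaving out 1 replicate gave 0.063 to 0.085 for the large subunit, 0.041 to 0.125 for the small subunit and -0.062 to 0.028 for large minus small. With mrps-30 and mrps-18A, whose human homologs lie in the large subunit, counted there, large minus small was -0.037. Signs turned for 8 of the 25 named genes, none of which passed. With the scanner's log ratios mrpl-46 had 0.042, mrps-21 0.041, mrps-15 0.12 and mrps-24 0.044, and with the series table they had 0.042, 0.041, 0.12 and 0.044. With the dye-flip array alone mrps-15 had 0.12, mrps-16 0.0061, mrps-14 0.046 and mrps-24 0.041, and with the slide as a block mrps-21 had 0.0072. Leaving out 1 replicate gave -0.115 to 0.031 for mrpl-46, -0.195 to 0.021 for mrpl-34, -0.119 to 0.073 for mrps-18A, -0.219 to 0.23 for mrps-21 and -0.155 to 0.025 for mrps-16. The cause was not tested. Each ratio is itself a difference within a replicate, so the test of the mean ratios is the paired analysis, and no further block by replicate could be fitted.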
